A study of Homo sapiens with 6 samples.

Results

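The unfolded protein response and chaperone genes of the endoplasmic reticulum (ER) were compared between MDA-MB-231 cells and the 231-BR line. The genes were chosen by symbol from knowledge of the pathway, with earlier results of these data known. Of the 17039 genes in the expression matrix, 35 were members. They comprised 15 chaperones and folding enzymes, 7 genes of ER-associated degradation, 4 genes of the sensors and XBP1, 8 genes of the ATF4 side, and WFS1. MDA-MB-231 is an established human triple-negative breast cancer line, and 231-BR is its brain-seeking variant, so the contrast is between a parental line and 1 selected derivative. Both lines were grown in DMEM with 10% fetal bovine serum and 1% penicillin-streptomycin. The 231-BR medium also held 200 µg/mL G418, a selection drug that was not stated for MDA-MB-231, so the line and the drug cannot be told apart. The 231-BR cells were a gift from another researcher and MDA-MB-231 was bought from ATCC, so line and source cannot be told apart either.

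Messenger RNA was sequenced from 3 libraries of each line, and the deposited values were FPKM, fragment numbers scaled by the length of the transcript and the size of the library. Nothing stated whether the 3 replicates of a line came from separate cultures, so the p-values measured only the spread between these libraries, which may be technical. The summed FPKM was 465019.8 to 472007.0 in 231-BR and 486936.6 to 496420.0 in MDA-MB-231, and the lowest correlation between libraries of a line was 0.997 against a highest of 0.902 between lines. Read depth could not be recovered from the FPKM values and is unknown. The estrogen receptor ESR1 was at most 1.08 FPKM and the progesterone receptor PGR at most 0.07 FPKM in any library, while ERBB2 was 9.61 to 10.23 FPKM in 231-BR and 4.75 to 5.08 FPKM in MDA-MB-231. The 3 leukocyte markers in the matrix summed to 0.09 to 0.31 FPKM in 231-BR and to 0.03 to 0.05 FPKM in MDA-MB-231. The 5 endothelial markers summed to 1.86 to 2.21 and to 0.72 to 0.96 FPKM, and the 4 neural and glial markers to 0.14 to 0.26 and to 0.04 to 0.12 FPKM.

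Proteins that enter the ER are folded by chaperones such as HSPA5 (BiP) and by disulfide isomerases, and those that fail to fold are exported and degraded. When unfolded proteins accumulate, the sensors ATF6 and ERN1 (IRE1) raise chaperone and degradation genes, ERN1 by splicing the XBP1 messenger. The sensor EIF2AK3 (PERK) phosphorylates eIF2alpha, which slows translation in general while favouring that of ATF4, a factor that induces DDIT3, amino acid synthesis genes and feedback inhibitors. Gene-level FPKM shows neither XBP1 splicing nor eIF2alpha phosphorylation, so the values below are messenger levels.

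The promoters of the members were searched for the sequence elements of the chaperone side and of the ATF4 side. RefSeq promoters (GRCh38.p14, 250 bases before each start) were found for 32 members and were searched on both strands for the ER stress response element (ERSE, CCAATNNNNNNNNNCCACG), its variant ERSE-II (ATTGGNCCACG), the UPR element core (UPRE, TGACGTGG) and the amino acid response element core (CARE, TGATGNAA). PDIA3, DERL1 and DERL3 had no entry. ERSE occurred in 6 of 14 chaperone genes and in XBP1, but in 0 of 5 degradation genes, 0 of 8 genes of the ATF4 side and not in WFS1, against 0.133% of 15843 protein-coding genes. ERSE-II occurred in SDF2L1, HYOU1 and HERPUD1, against 0.0884% of genes, and the UPRE core in HYOU1, against 0.865%. CARE occurred in HERPUD1, ATF3, CHAC1 and ASNS, 3 of them among the 8 genes of the ATF4 side, against 3.16% of genes. The lists and the elements both came from knowledge of the pathway, so these shares describe the lists and are not an independent result. These stretches are shown because they hold the elements through which ATF6, XBP1 or ATF4 are known to act. Capitals mark the matched element on either strand, with 12 bases on each side, written 5′ to 3′ along the strand of the gene.
HSPA5 (chr9:125241379-125241421, minus strand): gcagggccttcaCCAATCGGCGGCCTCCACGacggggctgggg
HSP90B1 (chr12:103930204-103930351, plus strand): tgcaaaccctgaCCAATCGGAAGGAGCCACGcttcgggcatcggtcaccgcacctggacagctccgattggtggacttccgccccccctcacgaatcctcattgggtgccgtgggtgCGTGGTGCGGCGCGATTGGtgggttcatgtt
CALR (chr19:12938372-12938414, plus strand): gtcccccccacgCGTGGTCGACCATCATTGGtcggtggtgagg
CANX (chr5:179698766-179698808, plus strand): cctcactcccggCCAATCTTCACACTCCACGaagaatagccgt
PDIA6 (chr2:10812841-10812883, minus strand): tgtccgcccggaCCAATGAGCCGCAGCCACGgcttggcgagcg
CRELD2 (chr22:49918542-49918584, plus strand): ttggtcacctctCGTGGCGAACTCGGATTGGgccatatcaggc
XBP1 (chr22:28800591-28800633, minus strand): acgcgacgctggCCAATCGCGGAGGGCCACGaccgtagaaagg
The next stretches hold ERSE-II, which in HYOU1 shares bases with a UPRE core and in HERPUD1 is accompanied by a CARE on the other strand.
SDF2L1 (chr22:21642102-21642136, plus strand): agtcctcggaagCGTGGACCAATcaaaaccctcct
HYOU1 (chr11:119057262-119057405, minus strand): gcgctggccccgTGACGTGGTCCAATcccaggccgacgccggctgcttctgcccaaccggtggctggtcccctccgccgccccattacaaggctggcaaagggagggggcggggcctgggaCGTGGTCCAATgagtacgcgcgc
HERPUD1 (chr16:56931954-56932047, plus strand): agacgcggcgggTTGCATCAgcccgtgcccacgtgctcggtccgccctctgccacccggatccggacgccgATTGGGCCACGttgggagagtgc
The last stretches hold the CARE core.
ATF3 (chr1:212565204-212565235, plus strand): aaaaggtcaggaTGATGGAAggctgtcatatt
CHAC1 (chr15:40953250-40953281, plus strand): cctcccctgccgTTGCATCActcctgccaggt
ASNS (chr7:97872457-97872488, minus strand): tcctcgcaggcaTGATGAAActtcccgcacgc
A match is a run of letters and not a measured binding site.

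Across the 35 members, 24 were lower and 6 were higher in 231-BR at an adjusted p under 0.05 (limma on log2 of FPKM + 0.1), and 5 did not pass. Among all 13465 genes tested, 32.9% were lower and 44.4% were higher by the same rule, so the members leaned down while the whole table leaned up. The median log2 fold change, 231-BR against MDA-MB-231, was -0.42 over the members and 0.08 over all genes. Pooled over the members, the median absolute log2 fold change was 0.44, against 0.38 for all genes. By size, 15 of the 35 members were beyond 0.58 on the log2 scale, against 32.8% of all genes tested. The chaperones alone had a median log2 fold change of -0.68. Abundant genes of any kind leaned down as well: of 751 genes with a mean of at least 100 FPKM, 57.0% were lower and 31.7% higher, with a median of -0.14. With quantile normalization the median of all genes moved from 0.08 to -0.06, the whole table became 42.7% lower and 35.8% higher, and the members became 28 lower and 4 higher. With median-of-ratios scaling the whole table was 38.5% lower and 39.0% higher and the members 27 lower and 6 higher. In bulk RNA, fewer cells with a transcript and less of it per cell cannot be told apart.

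For 31 members no 231-BR library overlapped with MDA-MB-231, with 231-BR lower for 25 and higher for 6, against 33.5% and 44.9% of all genes tested. The stricter criteria, which besides the adjusted p ask for a log2 fold change beyond 1 in either direction and for at least 1 FPKM on average in both lines, were met by 2 lower members, HSPA5 and SDF2L1, and by 1 higher member, WFS1. Of all genes tested 1.77% were lower and 4.68% higher by these criteria. An exact permutation test of 3 libraries against 3 cannot give a two-sided p below 0.1, so single-gene calls rest on the limma fit across all genes.

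**Figure D1:**
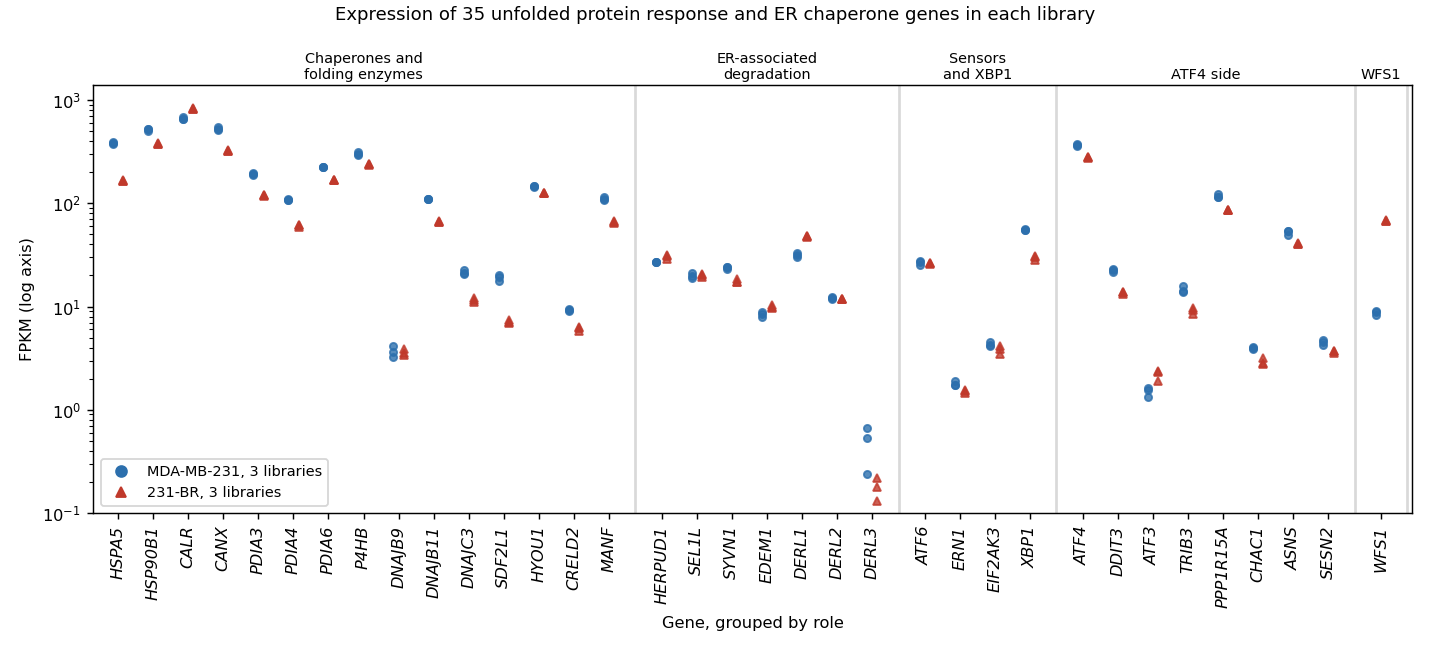
FPKM of the 35 genes (log axis) in each library, with MDA-MB-231 as circles and 231-BR as triangles, grouped by role. Most chaperone symbols of 231-BR lie below those of MDA-MB-231, CALR and WFS1 lie above, and the points of DNAJB9 and SEL1L overlap.

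HSPA5, the BiP chaperone that also holds the stress sensors inactive, measured 165.18, 167.96 and 165.20 FPKM in 231-BR and 394.10, 378.05 and 386.10 FPKM in MDA-MB-231. Every 231-BR library was far below every MDA-MB-231 library, with little spread inside either line. The log2 fold change was -1.22 (SE 0.0226, adjusted p = 4.8e-11, limma), or 2.32-fold higher mean FPKM in MDA-MB-231. HSPA5 had been singled out by the study from these same libraries. SDF2L1, which works with DnaJ proteins to keep HSPA5 clients soluble, measured 7.36, 7.08 and 6.87 FPKM in 231-BR and 17.73, 19.52 and 19.99 FPKM in MDA-MB-231. These values are low in both lines and did not overlap. Its log2 fold change of -1.41 (SE 0.0519, adjusted p = 4.7e-09) was the lowest of the 35 members.

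The co-chaperones of HSPA5 divided. DNAJC3 (P58IPK), which delivers clients to HSPA5, measured 11.69, 11.02 and 12.08 FPKM in 231-BR and 22.69, 20.79 and 21.19 FPKM in MDA-MB-231. DNAJB11 (ERdj3), which binds secretory clients, measured 66.10, 66.55 and 67.51 against 110.09, 110.75 and 110.07 FPKM. All libraries of 231-BR were lower for both genes, with log2 fold changes of -0.89 and -0.72. DNAJB9 (ERdj4), a co-chaperone that represses ERN1 and is among the best known targets of spliced XBP1, measured 3.55, 3.86 and 3.37 FPKM in 231-BR and 4.16, 3.59 and 3.24 FPKM in MDA-MB-231. Its libraries overlapped, and the log2 fold change of -0.02 had a 95% interval of -0.23 to 0.19 (adjusted p = 0.84, limma), which leaves out a fall as large as that of DNAJB11. HYOU1, a large chaperone that exchanges the nucleotide of HSPA5, lay between 125.16 and 126.57 FPKM in 231-BR and between 143.57 and 147.43 FPKM in MDA-MB-231 and fell by 0.21 on the log2 scale. MANF and CRELD2, small secreted proteins of the ER stress response, fell by 0.75 and 0.60 on the same scale.

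HSP90B1 (GRP94), the ER member of the HSP90 family, measured 386.95, 377.76 and 377.55 FPKM in 231-BR and 523.67, 506.06 and 522.59 FPKM in MDA-MB-231. Each 231-BR library was below each MDA-MB-231 library, and the log2 fold change was -0.44 (SE 0.0226, adjusted p = 4.5e-08, limma). The lectin chaperones calnexin and calreticulin, which hold glycoproteins in the same cycle, moved apart. CANX, the membrane-bound lectin, measured 330.33, 319.63 and 320.99 FPKM in 231-BR and 542.90, 528.76 and 514.39 FPKM in MDA-MB-231, a log2 fold change of -0.71. CALR, the soluble lectin, measured 817.16, 839.11 and 820.60 FPKM in 231-BR and 661.85, 653.12 and 685.56 FPKM in MDA-MB-231. All CALR values of 231-BR were the higher ones, with a log2 fold change of 0.31 (SE 0.0243, adjusted p = 1.1e-06), and CALR was the 1 chaperone that rose.

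The 4 disulfide isomerases among the members all fell. Related genes outside the members, named after their values were seen, ran both ways. PDIA5 (0.17), ERP29 (0.22) and TMX1 (0.42) were higher. TXNDC5 (-0.68), DNAJC10 (-0.33), ERP44 (-0.26) and TXNDC12 (-0.12) were lower, and TXNDC11 (-0.01) did not pass. PDIA4 measured 59.17, 61.44 and 61.77 FPKM in 231-BR and 110.62, 108.61 and 106.56 FPKM in MDA-MB-231, and PDIA3, which serves glycoproteins held by the lectins, 117.96, 119.67 and 120.09 against 190.68, 194.98 and 189.22 FPKM. Their log2 fold changes were -0.84 and -0.68, with each 231-BR library below all of MDA-MB-231. PDIA6 and P4HB, the classical isomerase, fell by 0.42 and 0.35 on the log2 scale, again without overlap. Altogether 13 of the 15 chaperones fell, CALR rose and DNAJB9 did not pass. Of all genes tested 32.9% were lower and 44.4% higher, and of genes with a mean of at least 100 FPKM 57.0% and 31.7%. The chaperones had a median log2 fold change of -0.68 and a mean of -0.60.

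The summed FPKM of the 15 chaperones was 2567 ± 9.91 (SD, n = 3) in 231-BR and 3344 ± 27.7 (SD, n = 3) in MDA-MB-231, a ratio of 0.768. This sum was 0.543% to 0.551% of the summed FPKM of each 231-BR library and 0.672% to 0.691% of that of each MDA-MB-231 library. The balance within a library also shifted, because HSPA5 fell and CALR rose. The ratio of HSPA5 to CALR in FPKM was 0.202, 0.200 and 0.201 for 231-BR, against 0.595, 0.579 and 0.563 for MDA-MB-231. The ratio of HSPA5 to HSP90B1, chaperones that are usually induced together, was 0.427, 0.445 and 0.438 against 0.753, 0.747 and 0.739. A scaling factor of the library does not enter either ratio.

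The genes of ER-associated degradation did not move as 1 group, with 3 of 7 higher, 2 lower and 2 not passing. Those shares, 42.9% higher and 28.6% lower, were near the 44.4% and 32.9% of all genes tested. The median log2 fold change was 0.02. DERL1, a membrane protein of the retrotranslocation channel, measured 46.72, 48.14 and 47.98 FPKM in 231-BR and 32.99, 30.33 and 31.78 FPKM in MDA-MB-231. Its 231-BR libraries were all higher, by 0.59 on the log2 scale (adjusted p = 1.2e-07, limma). HERPUD1, an organiser of the degradation complex that ER stress induces strongly, measured 29.09, 31.54 and 30.62 against 26.77, 26.99 and 26.93 FPKM, a log2 fold change of 0.18 (adjusted p = 0.00085). EDEM1, a mannosidase-like protein that extracts glycoproteins for degradation and a target of XBP1, measured 9.62, 9.99 and 10.29 against 8.49, 7.98 and 8.78 FPKM, a log2 fold change of 0.24. Both were higher in every 231-BR library, but EDEM1 was 0.11 and no longer passed with quantile normalization.

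SYVN1 (HRD1), the ubiquitin ligase of the pathway, measured 17.40, 17.29 and 18.29 FPKM in 231-BR and 24.03, 24.23 and 23.28 FPKM in MDA-MB-231, and fell by 0.43 on the log2 scale (adjusted p = 1.3e-06, limma). Its partner SEL1L had a log2 fold change of 0.02 with overlapping libraries (adjusted p = 0.76), and the sign turned with either other scaling. DERL2, a relative of DERL1, had a value of -0.03 (adjusted p = 0.47). DERL3, a further relative, was lower by 1.00 on the log2 scale (SE 0.284, adjusted p = 0.0086) but measured only 0.18, 0.13 and 0.22 FPKM in 231-BR and 0.24, 0.67 and 0.53 FPKM in MDA-MB-231, under 1 FPKM in both lines. Its size depended on the processing, with -0.32 at a pseudocount of 1, -1.30 at a pseudocount of 0.01, -1.40 with quantile normalization and -1.35 to -0.76 with single libraries left out.

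With the values as deposited, the sensors moved little and XBP1 moved more. ATF6, the membrane-bound factor released by cleavage, measured 26.12, 26.12 and 25.92 FPKM in 231-BR and 26.92, 27.85 and 25.36 FPKM in MDA-MB-231, with overlapping libraries and a log2 fold change of -0.03 (adjusted p = 0.41, limma). EIF2AK3, the PERK kinase, measured 4.13, 3.88 and 3.50 against 4.20, 4.12 and 4.50 FPKM, also overlapping, a log2 fold change of -0.15 (adjusted p = 0.079). Both genes passed as lower with median-of-ratios scaling (-0.12 and -0.23) and with quantile normalization (-0.09 and -0.40). ERN1, the IRE1 kinase and RNase, measured 1.46, 1.51 and 1.57 against 1.73, 1.75 and 1.91 FPKM and fell by 0.23 (adjusted p = 0.027, limma). The call did not hold without 231-BR replicate 1 (-0.21), 231-BR replicate 2 (-0.23) or MDA-MB-231 replicate 3 (-0.19). It held with median-of-ratios scaling (-0.31) and with quantile normalization, where the fall of ERN1 was larger (-0.61). XBP1, the factor whose messenger ERN1 splices, measured 28.49, 31.14 and 29.97 FPKM in 231-BR and 55.38, 56.07 and 55.62 FPKM in MDA-MB-231. Its libraries were widely apart, with a log2 fold change of -0.90 (SE 0.034, adjusted p = 5.8e-09). The FPKM counts spliced and unspliced XBP1 together.

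**Figure D2:**
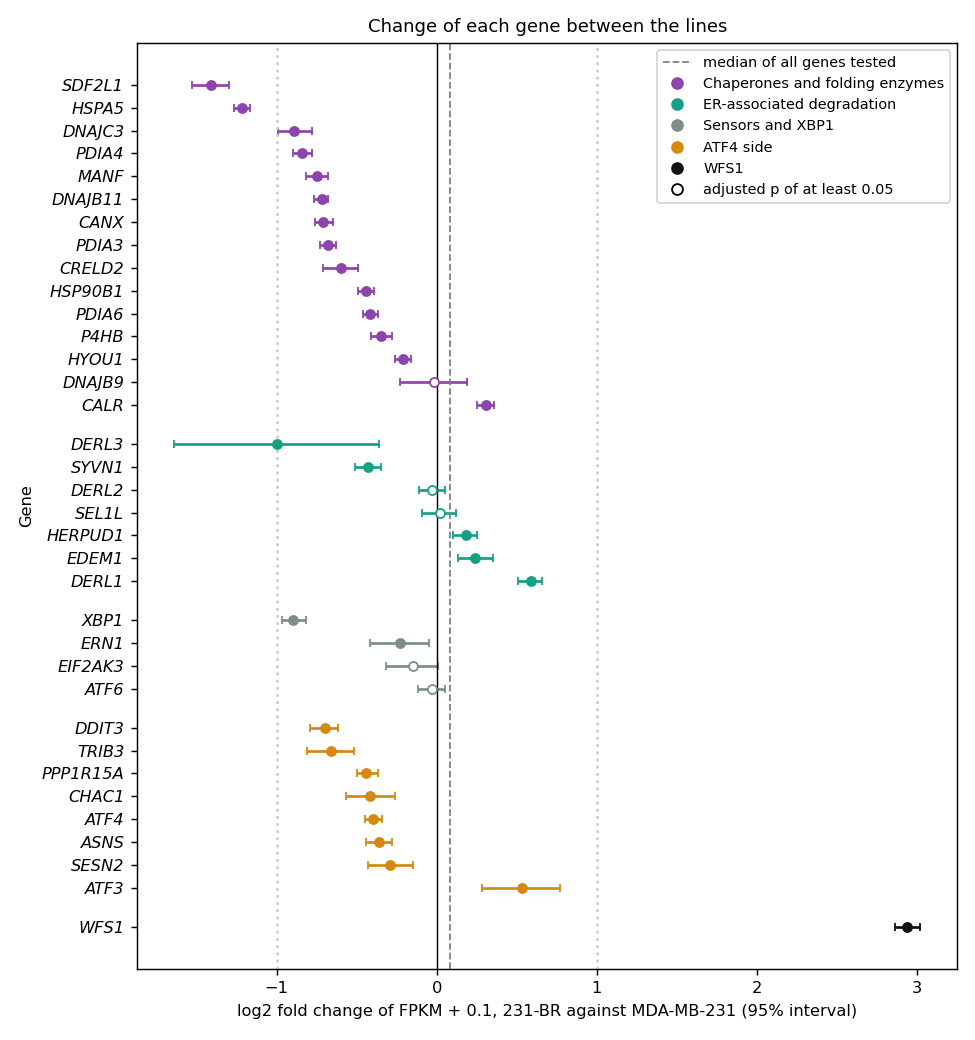
Log2 fold change of FPKM + 0.1 in 231-BR against MDA-MB-231 for each gene, with bars for the 95% interval of the limma fit, filled symbols for an adjusted p under 0.05, a dashed line at the median of all genes (0.08) and dotted lines at -1 and 1. HSPA5 and SDF2L1 lie beyond -1, WFS1 at 2.94, and CALR and ATF3 to the right of 0 in lists that otherwise lie to the left.

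On the ATF4 side 7 of 8 genes fell and 1 rose, against 32.9% lower and 44.4% higher among all genes tested. The median log2 fold change was -0.41 and the mean -0.34. ATF4, the factor of the integrated stress response, measured 274.41, 279.84 and 282.93 FPKM in 231-BR and 359.20, 367.91 and 377.37 FPKM in MDA-MB-231. DDIT3 (CHOP), a pro-apoptotic factor that ATF4 induces, measured 13.70, 13.86 and 13.35 against 21.41, 22.38 and 23.05 FPKM. Neither gene had overlapping libraries, and the log2 fold changes were -0.40 (adjusted p = 1.6e-07, limma) and -0.70 (adjusted p = 6e-08). The ratio of DDIT3 to ATF4 within a library was 0.0499, 0.0495 and 0.0472 in 231-BR and 0.0596, 0.0608 and 0.0611 in MDA-MB-231. TRIB3, a pseudokinase that restrains ATF4 and AKT, measured 9.35, 9.72 and 8.43 FPKM in 231-BR and 13.94, 14.03 and 15.73 FPKM in MDA-MB-231, a log2 fold change of -0.66.

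Most of the feedback and metabolic targets fell as well. PPP1R15A (GADD34), the phosphatase subunit that reverses eIF2alpha phosphorylation, measured 86.90, 86.94 and 86.71 FPKM in 231-BR and 114.35, 115.54 and 122.93 FPKM in MDA-MB-231. Its log2 fold change was -0.44. CHAC1, which degrades glutathione, was at -0.42, ASNS, the asparagine synthetase, at -0.36 and SESN2, an inhibitor of mTORC1, at -0.29, each passing the test with all 231-BR libraries lower. ATF3, a stress factor that several pathways induce, went the other way with 2.32, 2.40 and 1.92 FPKM in 231-BR against 1.56, 1.61 and 1.34 FPKM in MDA-MB-231. All 231-BR values were higher (log2 fold change 0.53, SE 0.108, adjusted p = 0.0013, limma), though at low levels, and the value was 0.15 and no longer passed with quantile normalization.

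The chaperone side and the ATF4 side were then compared as lists, and both had a lower sum in 231-BR. The summed FPKM of the 8 ATF4-side genes was 438 ± 3.26 (SD, n = 3) in 231-BR and 584.6 ± 17.3 (SD, n = 3) in MDA-MB-231. The ratio was 0.749, beside 0.768 for the chaperones. ATF4 alone gave 279 and 368 FPKM of these sums, so the ratio mostly followed ATF4 itself (0.758). CALR, which rose, gave 826 of 2567 FPKM of the chaperone sum in 231-BR and 667 of 3344 FPKM in MDA-MB-231. In single libraries, the mean log2 level of the chaperones exceeded that of the ATF4 side by 2.18, 2.15 and 2.23 in 231-BR and by 2.49, 2.43 and 2.40 in MDA-MB-231. The same difference taken between medians went the other way, with 3.37, 3.35 and 3.49 in 231-BR against 3.07, 3.05 and 2.91 in MDA-MB-231. Gene by gene, the chaperones fell more, with a median log2 fold change of -0.68 against -0.41 and a mean of -0.60 against -0.34. A median of levels reflects only the middle genes of a list, so its difference is not a fold change. The sums (0.768 and 0.749) did not show this order, and the lists were not tested against each other.

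WFS1 (wolframin), an ER membrane glycoprotein whose loss causes Wolfram syndrome and which restrains ATF6, stood apart from the other members. It measured 67.15, 69.20 and 66.68 FPKM in 231-BR and 8.97, 8.86 and 8.33 FPKM in MDA-MB-231. The 231-BR libraries were 7.76-fold higher in mean FPKM, with a log2 fold change of 2.94 (SE 0.036, adjusted p = 5.2e-12, limma). This placed it at percentile 98.3 of all genes tested, while SDF2L1 stood at percentile 2.5 and HSPA5 at 3.2. WFS1 too had been singled out by the study from these libraries. The ratio of WFS1 to HSPA5 was 0.407, 0.412 and 0.404 in 231-BR and 0.0228, 0.0234 and 0.0216 in MDA-MB-231.

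The elements in the promoters were set beside the measured changes. Among all genes tested, 32.9% were lower and 44.4% higher. Of the 7 members with ERSE, 6 fell and CALR rose, with a median log2 fold change of -0.60. Of the 14 genes outside the members that hold ERSE, 9 were tested, of which 4 rose and 2 fell, with a median of 0.15. For ERSE-II the 10 tested genes outside the members gave 5 lower and 4 higher with a median of -0.05, and the members with it, SDF2L1, HYOU1 and HERPUD1, spanned -1.41 to 0.18. For CARE, 256 genes outside the members were tested, with 77 lower, 115 higher and a median of 0.09, while ASNS and CHAC1 fell and ATF3 and HERPUD1 rose. For the UPRE core, 102 genes outside the members were tested, with 34 lower, 45 higher and a median of 0.01, while HYOU1 fell. Among the members with ERSE, XBP1 was at -0.90, HSPA5 at -1.22 and CALR at 0.31. Whether the elements had a part in these changes was not tested.

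Each gene was also set beside its neighbours on the chromosome. For each gene, the median log2 fold change of the 40 nearest genes with a mean of at least 1 FPKM (20 on each side, gene order of the RefSeq annotation) was taken as a measure of its region, a method chosen after the data had been seen, and it could be computed for 30 members. The regions of CALR (0.92) and DERL1 (0.75) were the 2 at or above 0.58, a level reached by 5.04% of the 10168 genes placed. HSP90B1 (0.51), ERN1 (0.44) and ATF3 (0.40) followed. The 4 members other than WFS1 that rose and had such a value all lay in a region above 0, and 13 of the 14 members whose region was below 0 were lower themselves, the exception being WFS1 (region -0.22). Of the 16 members whose region was above 0, only 5 had a positive log2 fold change themselves, and HSP90B1 (-0.44), ERN1 (-0.23) and SESN2 (-0.29) were lower in regions at 0.51, 0.44 and 0.36. Over all genes placed, 66.6% of those in regions below 0 had a negative value and 75.3% of those in regions above 0 a positive one. DNA copy number was not measured, and the part of the regions in these changes was not tested.

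Set against its own region, 27 of 30 members were lower, against 50.3% of all genes placed. By more than 0.58 on the log2 scale, 9 members were below their region, against 8.04% of genes placed. All 13 chaperones with a value were below their regions, with a median difference of -0.56, and the 7 genes of the ATF4 side had a median difference of -0.32. The difference was -0.61 for CALR, although CALR itself was higher in 231-BR, and -0.96 for HSP90B1, next to -0.99 for HSPA5. HERPUD1 (0.00), ATF3 (0.13) and WFS1 (3.16) were the 3 that were not below. The abundant genes as a class leaned down in 231-BR as given above, and this comparison made no allowance for it.

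**Figure D3:**
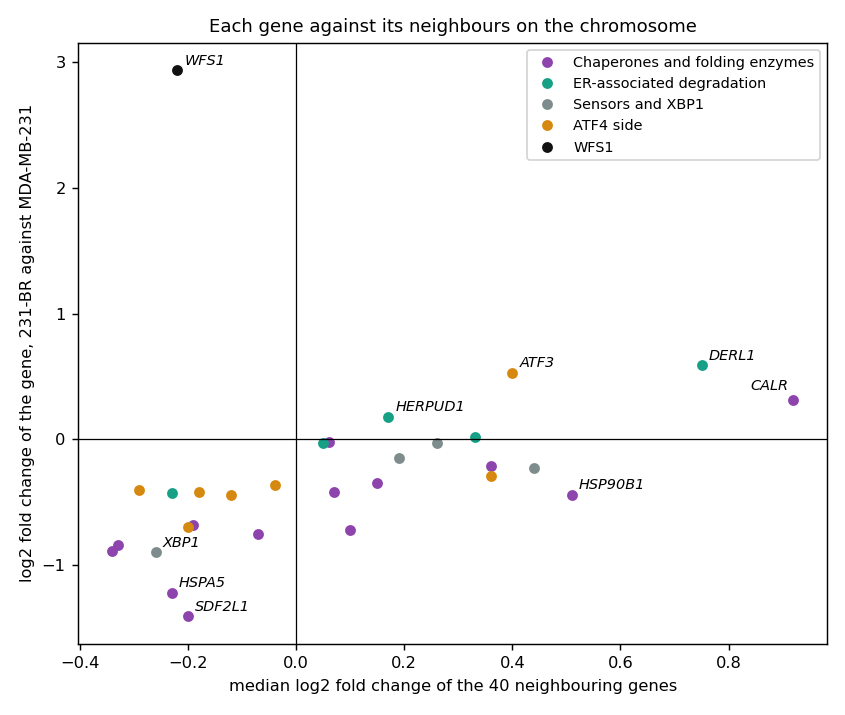
Log2 fold change of each of 30 genes in 231-BR against MDA-MB-231 (vertical axis) against the median over its 40 neighbours (horizontal axis), coloured by role. CALR and DERL1 lie at the right, where the neighbours are higher in 231-BR, HSPA5 and SDF2L1 at the lower left, and WFS1 at 2.94 over neighbours at -0.22.

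Other genes of the pathway, which are not members, ran in both directions, but most of their lists held a larger share of lower genes than the whole table. All genes tested gave 32.9% lower and 44.4% higher. Genes with a mean of at least 100 FPKM gave 57.0% and 31.7%, and the lists were not matched for level. Folding and glycosylation gave 45.2% and 35.5%, translocon and secretory entry 39.1% and 34.8%, and further degradation genes 52.0% and 24.0%. Of 31 tested genes of ER folding and glycosylation, 11 were higher and 14 lower with a median of -0.06. PPIB, an ER prolyl isomerase, was the largest fall of that list at -0.89, from 386 to 209 FPKM in the mean, and FKBP7, another prolyl isomerase, was 2.24 ± 0.0458 FPKM in MDA-MB-231 and 5.06 ± 0.0839 FPKM in 231-BR (SD, n = 3 each) and rose by 1.14 on the log2 scale. Of 23 genes of the translocon and secretory entry, 8 were higher and 9 lower, with a median of -0.01, between SEC11C, a signal peptidase subunit, at -0.72 and SRPRA, the receptor of the signal recognition particle, at 0.57. Of 25 further genes of ER-associated degradation, 6 were higher and 13 lower, with a median of -0.09, from UFD1, a cofactor of the VCP segregase, at -0.69 to RNF139, an ER ubiquitin ligase, at 1.23, whose neighbours had a median of 0.75.

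Of 14 tested stress sensors, bZIP factors and proteases, 5 were higher and 7 lower, with a median of -0.06. The lower share was above the 32.9% of all genes tested, and the higher share of 35.7% was below 44.4%. CREB3L1 (OASIS), a membrane-bound factor akin to ATF6, fell from 11.9 to 4.62 FPKM (log2 fold change -1.35) and BAK1, a pro-apoptotic protein that also binds ERN1, from 21.4 to 9.98 FPKM (-1.10). NFYC, a subunit of the factor that binds the CCAAT part of ERSE, was higher by 0.59. Of the 16 eIF2alpha kinase, phosphatase and eIF2B genes, 56% (9) were higher and 25% (4) lower, against 44.4% and 32.9% of all genes tested, with a median of 0.25, between EIF2S3, a subunit of eIF2, at -0.52 and IMPACT, an inhibitor of the kinase GCN2, at 0.71.

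Of 47 tested genes among other ATF4 targets, 17 (36.2%) were higher and 27 (57.4%) lower, against 44.4% and 32.9% of all genes tested. Among genes with a mean of at least 100 FPKM, 31.7% were higher and 57.0% lower. The median of -0.15 and the mean of 0.18 differed in sign. VLDLR, a lipoprotein receptor, was at -1.87, SLC7A11, the cystine transporter, at -1.20 and DDIT4, an mTORC1 inhibitor, at -1.13, while JDP2, a bZIP repressor, was at 1.18 and SLC38A2, a glutamine transporter, at 1.02. PHGDH, the first enzyme of serine synthesis, had the largest rise, from 0.03 ± 0.0173 FPKM in MDA-MB-231 to 29.4 ± 0.341 FPKM in 231-BR (SD, n = 3 each). Its log2 fold change of 7.84 depends on the pseudocount, and it fell outside the stricter criteria because its mean in MDA-MB-231 was under 1 FPKM. The same held for NUPR1 (4.38), from 0.0167 FPKM in MDA-MB-231 to 2.29 FPKM in 231-BR, and GDF15 (2.48), from 0.15 to 1.33 FPKM. Both stayed at low levels.

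**Figure D4:**
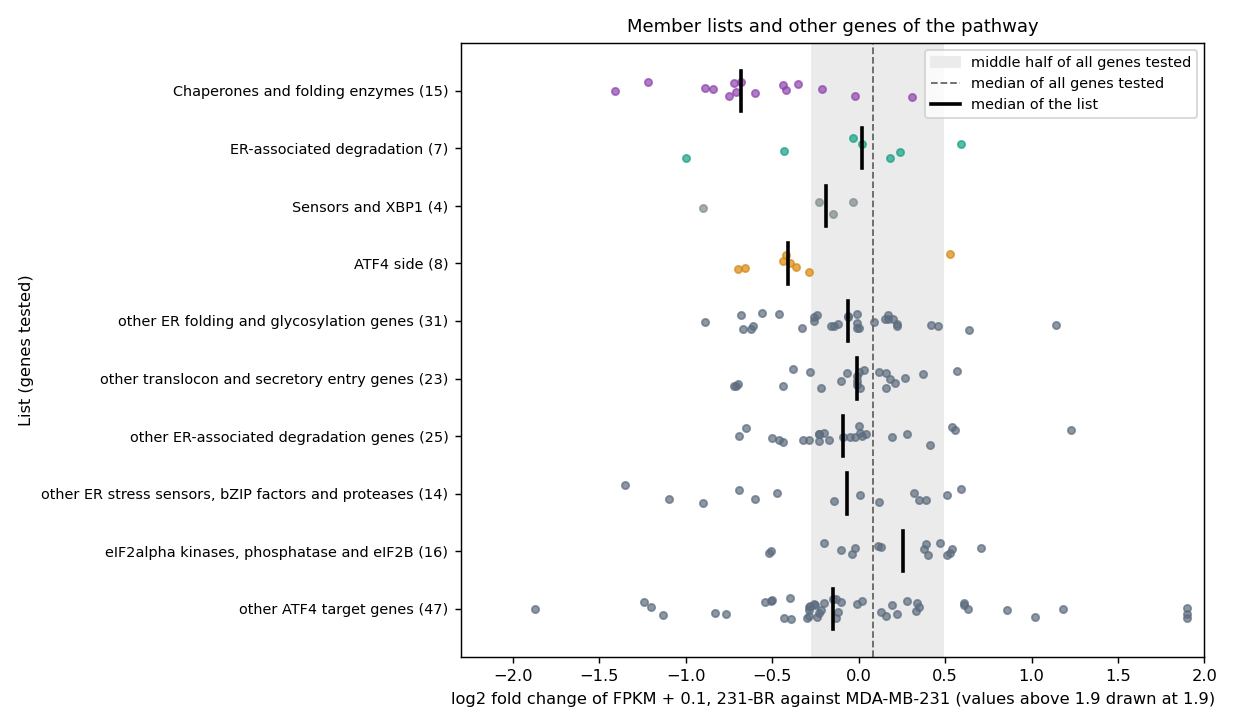
Log2 fold change of each tested gene in the member lists (upper rows) and in lists of other pathway genes (lower rows), with a thick bar at the median of the list and a shaded band from the 25th to the 75th percentile of all genes tested (-0.27 to 0.49). The chaperone median (-0.68) and the ATF4-side median (-0.41) lie left of the band, and the medians of the other lists lie inside it. WFS1 belongs to none of these lists and is not drawn, and the 3 genes above 1.9 are drawn at 1.9.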

How the data were processed

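Poly(A) RNA of 6 libraries was sequenced by the authors on a BGISEQ-500. Per the submitters' processing notes, reads were aligned with HISAT2 2.0.4 and Bowtie2 2.2.5 to GRCh38.p12. The deposited values were FPKM per gene, and the program that computed them was not given in the sources used here. The study tested counts with another method. Only FPKM were used here. The groups were taken from the sample titles, since the number in the cell line labels counted upwards from 231 to 233 within each line. Symbols turned into dates were repaired for 25 genes.

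From these values, log2(FPKM + 0.1) was fitted with limma 3.58.1 (R 4.3.3, lmFit and eBayes with a trend) for 13465 genes with a mean of at least 0.1 FPKM over the 6 libraries. P-values are two-sided and adjusted by the Benjamini-Hochberg method over all genes tested. The pseudocount makes fold changes of low genes smaller. Read depth could not be recovered, so no counting error is given. Fits were tested on simulated data first. The members and gene lists were chosen with earlier results of these data known. All 35 members are named. Of the other lists, every gene past the stricter criteria is named, with the largest rise and fall. A few further genes of these lists were named after their values were seen. Alternatives were other scalings, pseudocounts, filters and a fold threshold, a replicate term and each library left out. The promoters and gene order came from RefSeq GRCh38.p14, a later patch than the build of the alignments.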

Additional observations from a re-analysis of the deposited data

How the results depend on the processing

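Across 14 alternatives, 470 of 489 comparisons of a member kept their direction and their side of the threshold, and 27 members did so in all of them. DERL3 was not in the fit with a filter at a mean of 1 FPKM. At an absolute log2 fold change over 0.58 in place of 1, the stricter criteria were met by 2 higher and 12 lower members. The share of all genes meeting these looser criteria in each direction was not computed, so these counts give no comparison with other genes. By size alone, 15 of the 35 members were beyond 0.58, against 32.8% of all genes tested. The chaperone median was -0.77 with median-of-ratios scaling, -0.61 with quantile normalization and -0.44 with the ER-associated degradation genes added. SEL1L turned to -0.07 with median-of-ratios scaling, to -0.05 with quantile normalization, to -0.01 without 231-BR replicate 1 and to -0.03 without MDA-MB-231 replicate 3. DNAJB9 turned to 0.02 without 231-BR replicate 3 and to 0.07 without MDA-MB-231 replicate 1 (lowest -0.10, without MDA-MB-231 replicate 3), and passed at -0.29 with quantile normalization. DERL2 (-0.11 and -0.12), ATF6 (-0.12 and -0.09) and EIF2AK3 (-0.23 and -0.40) passed as lower with median-of-ratios scaling and quantile normalization, and EIF2AK3 also without 231-BR replicate 1 (-0.21). The cause was not tested. With each library left out in turn, 6 members were higher and 23 to 24 lower, the chaperone median ran from -0.69 to -0.67, the ATF4-side median from -0.42 to -0.39 and the degradation median from -0.03 to 0.06. Libraries with the same replicate number did not deviate together (correlations -0.0266 to 0.015). A replicate block gave 6 higher and 24 lower members, against 44.7% and 33.3% of all genes tested, and changed no call of a member.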
